A study of Mus musculus with 2 samples.

Results

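The genes described here were 10 components of Notch signalling, taken by name from the 32285 genes of the count matrices: the receptors Notch1, Notch2 and Notch3, the DNA-binding effector Rbpj, the transcriptional repressors Hes1, Hey1, Heyl and Hes6, and the ligands Dll1 and Jag1. Their mRNA was counted in single cells sorted from the plantaris muscle of 26-week-old Pax7rtTA; TRE-H2B-GFP mice, in which rtTA is made from the endogenous Pax7 locus and drives a histone-GFP label when doxycycline is given. Both groups carried these alleles and drank doxycycline at 2.0 mg/mL with 2% sucrose for 2 weeks. One group had sham surgery, in which the skin was opened and the tendons were probed, and the other had 5 days of mechanical overload (MOV), in which parts of the gastrocnemius tendon and of the soleus were excised so that the plantaris carried their load. Each condition had 1 library. The methods of the study name several mice per condition, which would mean pooled animals, while the labels name a single mouse. No p-value is given, since a comparison of sham with MOV cannot be checked against replicates. The intervals below are exact 95% intervals for the counting of unique molecular identifiers (UMIs, each tagging 1 captured mRNA) and cover no variation between animals. Green fluorescence is not analysed here.

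Notch receptors are surface proteins that are cut when a ligand of the Delta or Jagged families on a neighbouring cell pulls on them. The freed intracellular part enters the nucleus and joins RBPJ, which then turns from a repressor into an activator of genes such as Hes1, Hey1 and Heyl. In muscle stem cells (MuSCs) the pathway is known for holding cells in quiescence and for opposing myogenic differentiation, and its loss leads to differentiation without division. In blood vessels the same receptors act between endothelial cells and the mural cells that surround them.

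Cells were grouped by the UMIs of marker genes, none of which was a member, and not by clustering. After cells with 10% or more mitochondrial UMIs were left out, the MuSC-like gate held 107 sham and 1442 MOV cells, with a median of 8513 and 22437 UMIs and a median mitochondrial share of 5.64% and 3.10% per cell. Pax7, which defines MuSCs, was at 130 CPM, its UMIs scaled to a group total of 1000000, in the sham and 77.1 CPM in the MOV MuSC-like cells. Of the other genes of that gate, Myod1 was at 730 CPM in sham and 174 CPM under MOV, and Chrdl2 at 156 and 11.9 CPM. Fgfr4 was at 113 and 78.4 CPM, Myf5 at 174 and 157 CPM and Cdh15 at 110 and 198 CPM. The 6 genes summed to 1412 and 695 CPM. They chose the cells, and the gate's minimum of 3 UMIs asks for a higher CPM in shallower cells. The part of the gate and of depth in these differences was not tested. Pdgfra, the receptor that gates the fibroblast-type cells, was at 0 UMIs in the sham and 0.899 CPM in the MOV MuSC-like cells, while Dcn, another gene of that marker list, was at 248 and 128 CPM, and the list of 7 genes summed to 259 and 147 CPM. Cells with Myog, the transcription factor of committed myoblasts, numbered 240 under MOV and 1 in sham. The other groups, sham against MOV, were droplets dominated by myofibre transcripts (500 and 30), Pdgfra cells (28 and 436) and vascular-like cells with endothelial or mural markers (10 and 64). The sort was meant to remove endothelial and Sca1-positive cells, and the markers show that some remained. A cell with markers of several of these types, apart from Myog with MuSC markers and endothelial with mural markers, was left out as mixed (8 sham and 123 MOV cells).

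Shared cell barcodes touch the sham groups and come before the values. The 2 matrices shared 44 cell barcodes, and for each the shallower copy was left out, which held a median of 2.12% of the deeper copy's UMIs on the MOV side. The deeper copies that were kept made up 10 of the 107 sham MuSC-like cells but 36.0% of their UMIs, with a median of 51188.5 UMIs. They also gave 26.5% of the UMIs of the sham Pdgfra cells (2 of 28 cells), 24.9% of those of the sham vascular-like cells (1 of 10) and 21.6% of those of the sham fibre droplets (22 of 500), but 3.94% in the quiescence-marker state described below (1 of 68). The only sham Myog cell was also such a copy. Values without either copy are given for the members that the sham comparisons turn on.

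All 10 members were detected in both libraries. The matrices held between 20 sham UMIs for Dll1 and 1216 for Hes1, and under MOV between 604 for Dll1 and 10078 for Rbpj. Because the assay reads the 3′ end of an mRNA and members differ in length and capture, levels are compared between groups for 1 gene at a time and not between genes. All members are protein-coding genes on the GRCm38 build: Notch1 at chr2:26457903-26516663, Notch2 at chr3:98013527-98150361, Notch3 at chr17:32120820-32166852, Rbpj at chr5:53466152-53657362, Hes1 at chr16:30064384-30067796, Hey1 at chr3:8663359-8667256, Heyl at chr4:123233556-123249875, Hes6 at chr1:91411483-91414038, Dll1 at chr17:15367354-15376872 and Jag1 at chr2:137081456-137116644. Values are totals per gene and do not separate its transcripts.

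Hes6 and Dll1 were the members that stood higher in Myog cells. For that reason the 250 bases before 1 of the 2 RefSeq starts of each (GRCm38.p6) are shown. Both are on the minus strand and are printed 5′ to 3′ along the gene, Hes6 from chr1:91414039-91414288 and Dll1 from chr17:15376933-15377182. The capitals mark CAGCTG, an E-box form that myogenic basic helix-loop-helix factors bind, which reads the same on both strands. It starts 171 bases before this Hes6 start and 132 bases before this Dll1 start. The window of the other Dll1 start, which is not shown, held no CAGCTG.
Hes6: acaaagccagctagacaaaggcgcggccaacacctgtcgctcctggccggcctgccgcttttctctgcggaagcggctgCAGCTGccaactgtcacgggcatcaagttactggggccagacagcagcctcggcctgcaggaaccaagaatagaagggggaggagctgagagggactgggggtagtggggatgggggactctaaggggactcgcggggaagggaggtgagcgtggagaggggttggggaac
Dll1: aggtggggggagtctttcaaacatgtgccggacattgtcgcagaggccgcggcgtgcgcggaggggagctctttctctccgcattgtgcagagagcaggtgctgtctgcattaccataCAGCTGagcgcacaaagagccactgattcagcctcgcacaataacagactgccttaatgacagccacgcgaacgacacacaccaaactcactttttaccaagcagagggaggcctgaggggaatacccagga

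CAGCTG was in 16.3% of the 32851 promoter windows of the RefSeq table, each of 250 bases before and 50 after a start. Of the members, 7 had windows there, 10 windows in all. Both Hes6 windows, 1 of the Dll1 windows and the Jag1 window held it, the last 82 bases before the start, whereas those of Notch1, Notch2, Notch3 and Rbpj did not. The Jag1 level went the other way from Hes6 and Dll1 in Myog cells. TGGGAA or its reverse complement TTCCCA, the letters known from RBPJ sites, was in 25.6% of all windows and among the members in those of Rbpj alone. These are matches of letters in a window and were not tested as binding sites.

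The first comparison asked how the members differed between MuSC-like cells of sham and of overloaded muscle. Notch2, Notch3, Hes1, Hey1, Jag1 and, by the least, Rbpj were lower under MOV, Hes6 was higher, and the intervals for Notch1, Heyl and Dll1 spanned no difference. With a mitochondrial limit of 5% in place of 10%, the intervals of Hes1 (−0.58 to 0.17), Hey1 (−1.003 to 0.52), Hes6 (−0.23 to 1.05) and Rbpj (−0.28 to 0.37) also spanned 0, while those of Notch2, Notch3 and Jag1 did not. Of the receptors, Notch2 was at 71.2 CPM in sham (58.2 to 86.4) and 35.5 CPM under MOV (33.8 to 37.4), a log2 ratio of −1.003 (−1.29 to −0.70). Notch3, a receptor that MuSCs share with mural cells, was at 101 CPM in sham (85.3 to 119) and 54.0 CPM under MOV (51.8 to 56.2), a log2 ratio of −0.90 (−1.15 to −0.65). The sham and MOV intervals of both receptors were apart. Notch1 was at 56.0 CPM (44.5 to 69.6) in sham and 45.0 CPM (43.0 to 47.0) under MOV, and its log2 ratio of −0.32 had an interval of −0.64 to 0.02.

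Rbpj, through which all of these receptors act, moved least among the members with narrow intervals. It was at 152 CPM in sham (132 to 173) and 127 CPM under MOV (124 to 131), a log2 ratio of −0.25 (−0.44 to −0.05). With the 5% limit the ratio was 0.036, so its direction is not settled by these files.

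Among the repressors, Hes1, the general Notch target, was at 125 CPM in sham (108 to 145) and 81.2 CPM under MOV (78.6 to 84.0), with 22.1% of the sham UMIs from 1 cell. Hey1, a target tied to MuSC quiescence, was at 31.8 CPM in sham (23.3 to 42.4) and 19.8 CPM under MOV (18.5 to 21.2), with 28.3% of the sham UMIs from 1 cell. Heyl, its relative, was at 31.8 CPM (23.3 to 42.4) and 36.6 CPM (34.8 to 38.5). The log2 ratios were −0.62 (−0.84 to −0.40) for Hes1, −0.68 (−1.11 to −0.22) for Hey1 and 0.20 (−0.22 to 0.66) for Heyl. A list of 6 immediate-early marker genes, Fos and Egr1 among them, summed to 1908 CPM in sham and 1288 CPM under MOV. Its part in the Hes1 levels was not tested. Hes6, which antagonises Hes1 and accompanies differentiation, went the other way, from 26.3 CPM (18.6 to 36.1) to 43.9 CPM (42.0 to 45.9), a log2 ratio of 0.74 (0.28 to 1.24), with 34.2% of the sham UMIs from 1 cell.

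Of the ligands, Jag1 had the lowest ratio of all members. It was at 40.8 CPM in sham (31.1 to 52.6) and 17.8 CPM under MOV (16.5 to 19.1), a log2 ratio of −1.20 (−1.58 to −0.79). Dll1 rested on 7 sham UMIs, and its levels of 4.84 and 6.78 CPM gave a log2 ratio of 0.48 with an interval of −0.58 to 1.81.

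Counted against all genes, 0 of the 10 members were 2-fold or more higher under MOV, where 11.2% of the 12997 genes with at least 20 UMIs were. Of the members 2 were 2-fold or more lower (Notch2 and Jag1), where 13.3% were. With a minimum of 50 UMIs the shares of all genes were 12.5% and 7.45%. In simulated data for this comparison, 9.95% of unchanged genes were past 2-fold, higher and lower counted together. The shares of all genes above are for each direction apart. The median log2 ratio was −0.47 over the members and 0.07 over all genes tested. When both copies of the shared barcodes were left out, the log2 ratios of the lower members were −1.64 for Jag1, −1.30 for Notch3, −1.12 for Notch2, −0.80 for Hey1 and −0.74 for Hes1. In that setting Heyl was at −0.37, the opposite sign from the value above, and Hes6 at 1.01. The share of cells with a Notch3 UMI, after each cell was thinned to 2000 UMIs, was 28.0% in sham (19.8 to 37.5) and 13.3% under MOV (11.6 to 15.1). Unthinned, the shares were 65.4% and 64.1%, the MOV cells being deeper. Pdgfra cells under MOV, with a median of 36877.5 UMIs and little Notch3, had 1.39% thinned (0.51 to 2.99) and 11.01% unthinned.

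**Figure D1:**
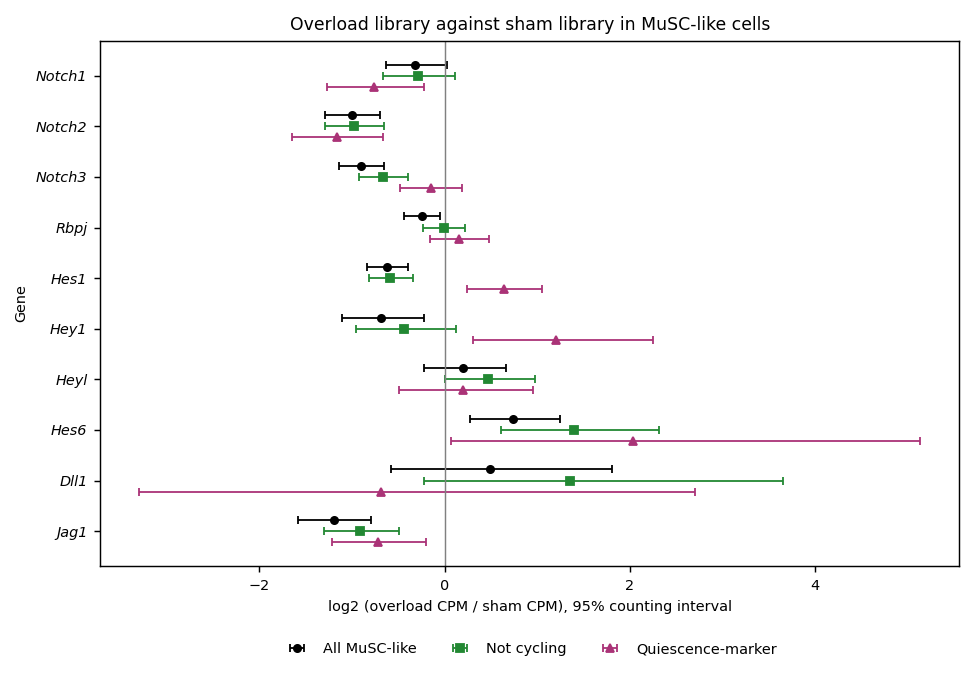
Log2 ratio of each member's CPM, MOV over sham, in all MuSC-like cells, in those that are not cycling and in those of the quiescence-marker state, with exact 95% counting intervals and 1 library per condition. Notch2 and Jag1 lie left of 0 in all 3 sets, while Hes1 is at −0.62 in all MuSC-like cells and at 0.64 in the quiescence-marker state.

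MuSC-like cells were then divided by marker lists into cycling cells, cells high in immediate-early, interferon, matrix or quiescence markers, and the remaining low-marker cells. In sham, 68 of 107 cells were in the quiescence-marker state and 7 were cycling. Under MOV, 191 of 1442 were in the quiescence-marker state and 598 were cycling, and the cycling cells gave 60.2% of the UMIs. The summed MuSC-like levels above therefore compare mixtures of states as well as libraries. Among cells that were not cycling, the MOV over sham log2 ratios were −0.98 for Notch2, −0.67 for Notch3, −0.91 for Jag1, −0.58 for Hes1 and −0.44 (−0.95 to 0.12) for Hey1, and that of Rbpj was −0.01. Notch1 was at −0.29 (−0.67 to 0.11), Heyl at 0.47 (0.0029 to 0.98) and Dll1, on 3 sham UMIs, at 1.36 (−0.23 to 3.65). Hes6 was at 11.8 CPM in sham (13 UMIs) and 31.02 CPM under MOV, a log2 ratio of 1.40 (0.61 to 2.32) that exceeds the value over all MuSC-like cells, where 25 of the 38 sham UMIs lay in the 7 cycling cells. Without the shared barcodes, 20 of these 38 UMIs remained, and how many of the 25 were among them was not counted.

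Within the quiescence-marker state, the intervals of Notch3 and Rbpj spanned no difference, MOV cells had less Notch1, Notch2 and Jag1, and they had more Hes1 and Hey1 at the thresholds used here but not at all of those tried. Notch3 was at 159 CPM in sham (128 to 194) and 143 CPM under MOV (129 to 159), a log2 ratio of −0.15 (−0.48 to 0.19), and its thinned share of cells was 33.8% and 25.1%. Rbpj was at 172 CPM (140 to 208) and 191 CPM (174 to 209). The bounds leave room for a difference in either direction for both genes. Notch2 was at 92.6 CPM in sham (69.9 to 120) and 41.4 CPM under MOV (33.8 to 50.4), a log2 ratio of −1.16 (−1.64 to −0.66). Notch1 was at 74.4 and 43.9 CPM, with a log2 ratio of −0.76 (−1.28 to −0.22), and Jag1 at 77.7 and 47.2 CPM, with −0.72 (−1.22 to −0.20).

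The 2 targets went opposite to these receptors in the same cells. Hes1 was at 101 CPM in sham (77.1 to 130; 21.3% of it in 1 cell) and 157 CPM under MOV (141 to 173), a log2 ratio of 0.64 (0.24 to 1.05). Hey1 was at 18.2 CPM in sham (9.08 to 32.5; 11 UMIs, 36.4% of them in 1 cell) and 41.9 CPM under MOV (34.1 to 50.8), a log2 ratio of 1.20 (0.30 to 2.25). Heyl did not separate, at 34.7 and 39.8 CPM, with an interval of −0.49 to 0.95 around a log2 ratio of 0.20. The immediate-early marker list (Fos, Egr1 and 4 other genes) summed to 1711 CPM in these sham cells and 1386 CPM in the MOV cells, and its part in the Hes1 levels was not tested. The Hes1 interval spanned 0 with the state thresholds halved (0.24, −0.26 to 0.77) and doubled (0.38, −0.02 to 0.80), and that of Hey1 with the thresholds halved (−0.0093 to 2.65) and with the 5% mitochondrial limit (−0.25 to 3.05).

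In this state 9 members had at least 20 UMIs. Of these, 2 were 2-fold or more higher under MOV (Hey1 and Hes6), where 15.6% of 7782 genes were, and 1 was 2-fold or more lower (Notch2), where 6.25% were. Hes6 rested on 33 MOV and 2 sham UMIs. The members' median log2 ratio was 0.15, beside 0.16 over all genes tested.

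**Figure D2:**
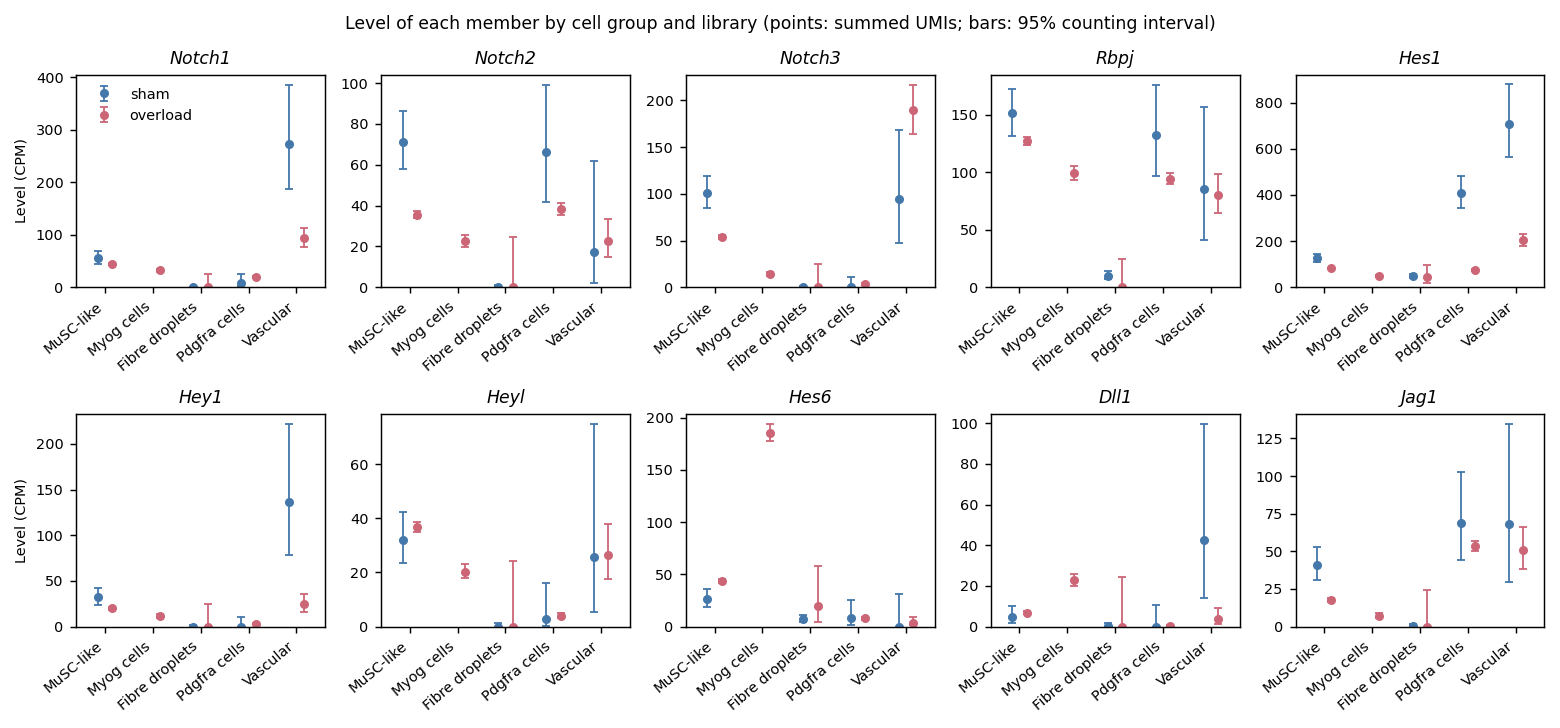
CPM of each member in the MuSC-like, Myog, fibre droplet, Pdgfra and vascular-like groups with 10 or more cells. Sham and MOV points have exact 95% Poisson intervals from 1 library per condition. Notch3 is at 189 CPM in the vascular-like cells of the MOV library and at 3.75 CPM in its Pdgfra cells.

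Across the states of the MOV library, where depth was greater, the receptors had different orders. Notch3 was highest in quiescence-marker cells, at 143 CPM, followed by matrix-marker cells at 87.9 CPM (80.9 to 95.3) and interferon-marker cells at 77.6 CPM (56.4 to 104). Immediate-early cells were at 69.8 CPM (54.2 to 88.5), and these 3 did not differ beyond their intervals. Low-marker cells at 41.2 CPM (36.4 to 46.4) and cycling cells at 39.1 CPM (36.8 to 41.6) were lower than all of these and alike within counting error. Against low-marker cells, the log2 ratio of quiescence-marker cells was 1.80 (1.56 to 2.03) for Notch3.

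Notch1 and Notch2 did not follow that order. Notch1 was at 42.1 to 44.8 CPM in the quiescence-marker, interferon, matrix, low-marker and cycling cells, and at 88.3 CPM (70.6 to 109) in the immediate-early cells. Notch2 was highest in immediate-early cells at 55.4 CPM (41.6 to 72.3) and matrix-marker cells at 50.6 CPM (45.3 to 56.3). It was lowest in interferon cells at 22.9 CPM (12.2 to 39.2), an interval that holds the 35.5 CPM of all MuSC-like cells. Rbpj was at 191 CPM in quiescence-marker, 183 CPM in interferon, 147 to 150 CPM in matrix-marker and low-marker, 130 CPM in immediate-early and 110 CPM in cycling cells. In sham, Notch1 did not stand out in the 13 immediate-early cells, where it had 1 UMI, at 13.6 CPM (0.344 to 75.7). Sham quiescence-marker cells had 74.4 CPM (54.3 to 99.5), and the intervals overlapped.

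The repressors divided the states of the MOV library in another way. Hey1 was at 41.9 CPM in quiescence-marker and 40.6 CPM in interferon cells, at 31.8 CPM in immediate-early cells (21.6 to 45.2; 25.8% of it in 1 cell), which overlapped both, and at 15.3 to 18.6 CPM in matrix-marker, cycling and low-marker cells. Hes1 was highest in immediate-early cells, at 207 CPM (180 to 238), of which 25.2% came from 1 cell, and lowest in interferon cells, at 26.4 CPM (14.8 to 43.6). Heyl stood out in immediate-early cells, at 133 CPM (112 to 158) against 29.3 to 54.3 CPM elsewhere, and was spread over cells there, with 9.23% of its UMIs in the top cell. The sham library differed for Hes1 in interferon cells. In 9 sham interferon cells Hes1 was at 275 CPM (181 to 400), with 44.4% of it in 1 cell. Sham quiescence-marker cells had 101 CPM (77.1 to 130).

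Immediate-early cells under MOV, 52 in number, also carried the most Dll1 of the MuSC-like states. Dll1 was at 28.7 CPM in them (19.1 to 41.5; 28 UMIs, 28.6% of them in 1 cell) and at 2.05 CPM in quiescence-marker cells (5 UMIs), a log2 ratio of 3.81 (2.42 to 5.54). In the same comparison Jag1 was lower, at 8.21 CPM where quiescence-marker cells had 47.2 CPM, with −2.52 (−3.77 to −1.50), and Hes6 was higher, at 52.3 CPM against 13.5 CPM. Neither ligand had a uniform level across MuSC-like states, and they were high in different ones. Jag1 was at 32.4 CPM in matrix-marker, 24.7 CPM in interferon and 20.7 CPM in low-marker cells. The Myog marker list was at 132 CPM in this group, 48.4 CPM in quiescence-marker, 93.5 CPM in interferon, 92.6 CPM in cycling, 133 CPM in low-marker and 155 CPM in matrix-marker cells. Myog itself was highest in the immediate-early cells, at 54.4 CPM, followed by low-marker cells at 30.4 CPM, and was at 8.62 CPM in quiescence-marker cells. The part of Myog and its list in the Dll1 and Hes6 levels was not tested.

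Cycling MuSC-like cells under MOV had less Jag1, Notch3 and Heyl than the other MuSC-like cells, more Hes6, and the same Notch1 within a narrow interval. Jag1 was at 10.8 CPM in cycling and 28.4 CPM in other cells, with −1.40 (−1.62 to −1.19) as log2 ratio. It was −0.97 (−1.09 to −0.85) for Notch3, −0.71 (−0.85 to −0.56) for Heyl, −0.53 (−0.63 to −0.43) for Hes1, −0.51 (−0.65 to −0.36) for Notch2, −0.50 (−0.58 to −0.42) for Rbpj and −0.27 (−0.47 to −0.07) for Hey1. Notch1 was at 44.8 and 45.3 CPM, with −0.02 (−0.15 to 0.12). Hes6 was at 52.4 and 31.02 CPM, with 0.76 (0.61 to 0.90), and Dll1 at 6.66 and 6.96 CPM, with −0.06 (−0.41 to 0.28). Of the 10 members 0 were 2-fold or more higher in cycling cells, where 7.67% of 12938 genes were, and 1 was 2-fold or more lower (Jag1), where 6.72% were. The median was −0.50 over the members and −0.05 over all genes. In sham, Jag1 was at 0 UMIs in the 7 cycling cells and Hes6 at 73.0 CPM (47.3 to 108), 52.0% of it in 1 cell. The part of shared barcodes in these 7 cells was not counted.

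**Figure D3:**
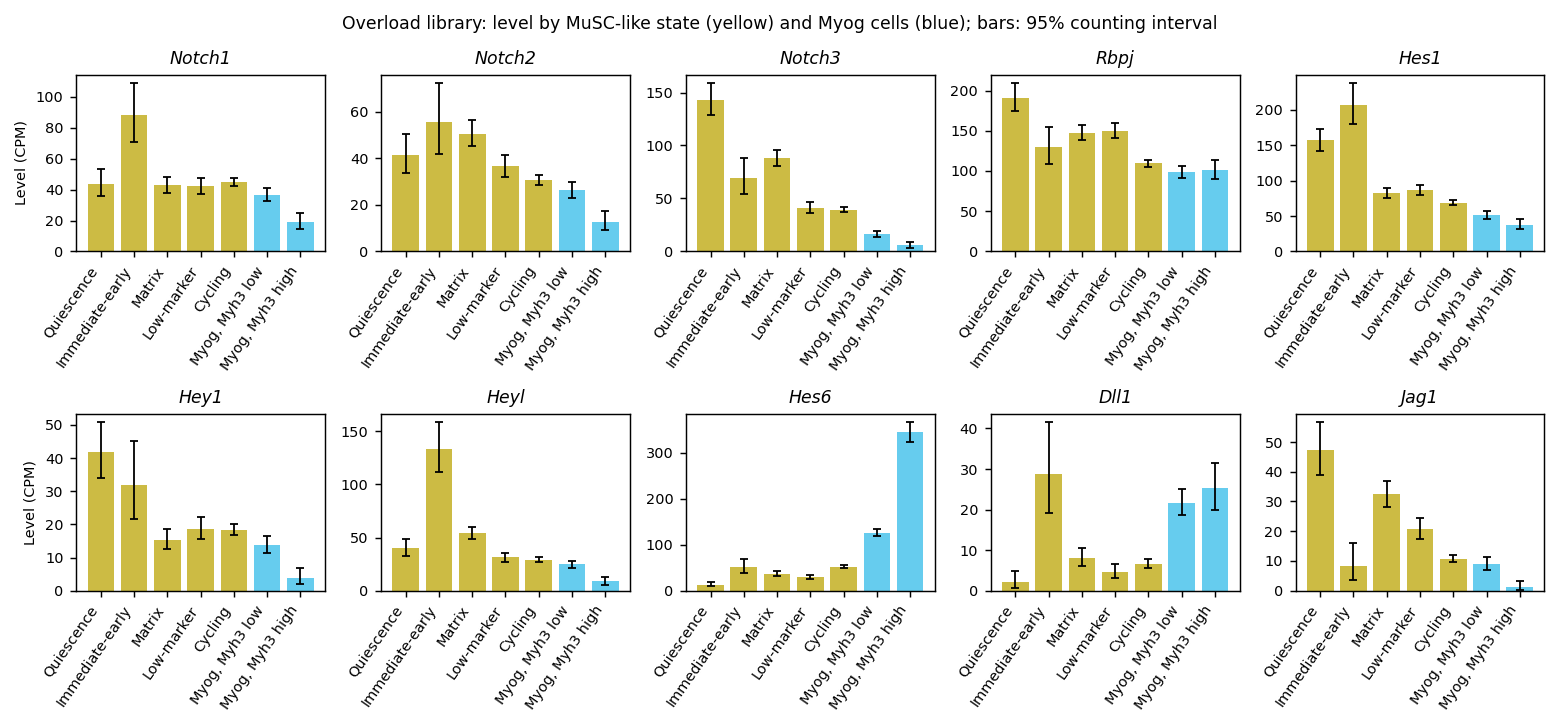
CPM of each member across the MuSC-like states, apart from the interferon state, and the Myh3-low and Myh3-high Myog cells of the MOV library. Error bars are exact 95% Poisson intervals. Hes6 reaches 344 CPM in Myh3-high Myog cells, while Notch3 lies at 143 CPM in quiescence-marker cells and at 5.90 CPM in Myh3-high Myog cells.

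Whether a cell with a receptor UMI also had more target UMIs was looked at in MuSC-like cells under MOV, each thinned to 4000 UMIs. Cells with a Notch3 UMI (366) had 484 Hes1 UMIs per 1000 cells and those without (1069) had 351, a log2 ratio of 0.46 (0.20 to 0.72), and the figures were 131 and 76 for Hey1, with 0.79 (0.25 to 1.32). Inside single states the Hes1 figures were 846 and 480 in quiescence-marker cells, with 0.82 (0.28 to 1.37), while the intervals spanned 0 in cycling cells (416 and 325, −0.15 to 0.83), matrix-marker cells (333 and 340, −0.72 to 0.62) and low-marker cells (326 and 357, −1.03 to 0.67). Cells with a Notch1 UMI (233) had 249 Heyl UMIs per 1000 cells, against 128 in the others, with 0.96 (0.50 to 1.40). Their Hes1 figures were 339 and 394, with −0.21 (−0.58 to 0.13), and 320 and 707 in quiescence-marker cells, with −1.14 (−2.39 to −0.12) on 8 UMIs. Cells with a Notch2 UMI (201) had 517 Hes1 UMIs per 1000 cells, against 363 in the others, with 0.51 (0.19 to 0.82), and 786 and 278 in low-marker cells, with 1.50 (0.86 to 2.12). In matrix-marker cells the pair was 235 and 362, with −0.62 (−1.63 to 0.26). Of the 9 pairs of a receptor with Hes1, Hey1 or Heyl over all MuSC-like cells, 5 had an interval across 0. At this depth most cells lack a UMI of any single receptor, and these values describe sparse counts of cells of 1 library.

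The comparison of Myog cells with MuSC-like cells of the MOV library addressed the members at the step of commitment. Hes6 and Dll1 were higher in Myog cells, the other 8 members were lower, and Notch3 and Jag1 were lower by the most. Hes6 was at 186 CPM in Myog cells (178 to 194) and 43.9 CPM in MuSC-like cells, a log2 ratio of 2.08 (1.99 to 2.17). Dll1 was at 22.7 CPM (19.95 to 25.7) and 6.78 CPM, a log2 ratio of 1.74 (1.49 to 1.99). Notch3 was at 13.6 CPM in Myog cells (11.5 to 16.0) and 54.0 CPM in MuSC-like cells, a log2 ratio of −1.98 (−2.23 to −1.75).

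Thus 1 ligand was high and the other low in the same cells. Jag1 was at 6.95 CPM in Myog and 17.8 CPM in MuSC-like cells, with a log2 ratio of −1.35 (−1.71 to −1.01). The targets Heyl and Hey1 were at 20.3 and 11.02 CPM in Myog cells, with log2 ratios of −0.85 (−1.06 to −0.65) and −0.85 (−1.13 to −0.57), and Hes1 was at 47.7 CPM, with −0.77. The ratios of Notch2, Notch1 and Rbpj were −0.66, −0.50 and −0.36. After thinning to 2000 UMIs, 21.2% of Myog cells had a Hes6 UMI (16.0 to 27.1), against 5.84% of MuSC-like cells and 0.924% of Pdgfra cells. The background part of the Pdgfra share was not tested. The Dll1 shares were 4.05% (1.87 to 7.56), 1.04% and 0 of 433 Pdgfra cells. Unthinned, 80.4% of Myog cells, with a median of 41378 UMIs, had a Hes6 UMI and 46.2% a Dll1 UMI.

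Of the 10 members, 2 were 2-fold or more higher in Myog cells (Hes6 and Dll1), where 6.71% of 13401 genes were, and 2 were 2-fold or more lower (Notch3 and Jag1), where 7.82% were. The median was −0.71 over the members and −0.10 over all genes. The fibre marker list summed to 6037 CPM in Myog cells and 526 CPM in MuSC-like cells, and 21 Myog cells were called doublets by a scoring step used only as a check. Without the cells of that check the log2 ratios were 2.16 for Hes6 and 1.75 for Dll1.

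Myog cells were split by Myh3, the embryonic myosin heavy chain that marks later myocytes, at 100 CPM, into 191 Myh3-low and 49 Myh3-high cells. Hes6 was higher still in the Myh3-high cells, Dll1 and Rbpj were alike, and the receptors and targets were lower. Hes6 was at 344 CPM in Myh3-high (324 to 366) and 126 CPM in Myh3-low cells (118 to 134), a log2 ratio of 1.45 (1.33 to 1.58). Dll1 was at 25.3 and 21.7 CPM, with 0.22 (−0.19 to 0.61), and Rbpj at 101 and 98.5 CPM, with 0.04 (−0.15 to 0.23). Notch3 was at 5.90 and 16.6 CPM, with −1.49 (−2.29 to −0.77), Heyl at 8.86 and 24.7 CPM, with −1.48 (−2.12 to −0.89), and Hey1 at 3.94 and 13.7 CPM, with −1.80 (−2.80 to −0.94). Notch2 was at 12.8 and 26.2 CPM, with −1.03 (−1.57 to −0.53), Notch1 at 19.02 and 36.8 CPM, with −0.95 (−1.38 to −0.54), and Hes1 at 38.05 and 51.4 CPM, with −0.43 (−0.74 to −0.13). Jag1 rested on 4 UMIs in Myh3-high cells, at 1.31 CPM against 9.10 CPM. The 1 sham Myog cell, the deeper copy of a shared barcode, had 2 Dll1 and 1 Hes6 UMIs and allows no comparison.

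Vascular-like cells of the MOV library, 64 in number, had more Notch3, Jag1, Hes1 and Notch1 than MuSC-like cells and almost no Hes6. Notch3 was at 189 CPM (164 to 217), a log2 ratio to MuSC-like cells of 1.81 (1.60 to 2.02). Jag1 was at 51.0 CPM (38.5 to 66.2), with 1.52 (1.10 to 1.91), Hes1 at 203 CPM (177 to 231), with 1.32 (1.12 to 1.52), and Notch1 at 92.8 CPM (75.7 to 113), with 1.04 (0.74 to 1.33). Hes6 rested on 4 UMIs, at 3.64 CPM, and its log2 ratio was −3.59. The other members lay between −0.90 for Dll1 and 0.31 for Hey1. Thus 4 members were 2-fold or more higher, where 23.2% of 13183 genes were, and 1 was 2-fold or more lower, where 14.9% were. The medians were −0.08 over the members and 0.03 over all genes.

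Mural-like and endothelial-like cells differed in the receptor they carried. The 32 cells with mural markers alone had 186 Notch3 UMIs, at 261 CPM (225 to 301), and the 20 with endothelial markers alone had 0. Read as up to 3 UMIs, the count of 0 there allows up to 16.4 CPM. At 16.4 CPM, Notch3 would be 3.99 higher on the log2 scale in mural-like cells, counting error aside. Notch1 was the reverse, at 32.3 CPM in mural-like and 175 CPM in endothelial-like cells, a log2 ratio of −2.44 (−3.28 to −1.62). Heyl had 24 UMIs in mural-like cells and 0 in endothelial-like cells, and Notch2 had 21 and 0. Hes1 (210 and 153 CPM) and Jag1 (57.5 and 43.8 CPM) were not separated. In the MuSC-like cells of this library the endothelial and mural marker lists summed to 4.19 and 10.6 CPM.

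The 10 sham vascular-like cells had Hes1 at 709 CPM (565 to 879), Notch1 at 273 CPM (187 to 386) and Notch3 at 93.9 CPM (46.9 to 168). Their log2 ratios of MOV over sham were −1.80 (−2.17 to −1.42) for Hes1, −1.56 (−2.14 to −0.94) for Notch1 and 1.01 (0.14 to 2.04) for Notch3. Without either copy of the shared barcodes these were −1.75, −1.83 and 0.60 (−0.27 to 1.62), and with mitochondrial limits of 5% and 20% Notch3 was at −0.35 and −0.38, the opposite direction, so the Notch3 difference rests on the limit. Single cells weighed heavily, with 68.8% of the sham Hey1 UMIs in 1 cell. The makeup differed too, as 6 of the 10 sham cells and 12 of the 64 MOV cells had both kinds of marker.

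Pdgfra cells of the MOV library, 436 fibroblast-type cells, carried Jag1, Notch2, Rbpj and Hes1 and little of the other members. Jag1 was at 53.4 CPM (49.9 to 57.0), a log2 ratio to MuSC-like cells of 1.59 (1.44 to 1.73). Notch2 was at 38.3 CPM, with 0.11 (−0.03 to 0.24), and Hes1 at 75.4 CPM, with −0.11 (−0.20 to −0.01). Rbpj was at 94.2 CPM and Notch1 at 19.9 CPM, with −0.44 and −1.17. Notch3, Heyl, Hey1 and Hes6 were at 3.75, 3.88, 3.26 and 7.69 CPM, with ratios from −3.85 (−4.24 to −3.48) for Notch3 to −2.51 for Hes6. Dll1 had 3 UMIs among 16249315 in these cells. Jag1 was thus the single member 2-fold or more higher, where 19.4% of 13893 genes were, and 6 were 2-fold or more lower, where 15.5% were. The medians were −1.84 over the members and −0.10 over all genes.

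Against sham, Hes1 was lower in the MOV Pdgfra cells. It was at 408 CPM in the 28 sham cells (344 to 481), 54.2% of it in 1 cell, a log2 ratio of −2.44 (−2.69 to −2.18). Without either copy of the shared barcodes Hes1 was at 219 CPM in 26 sham cells (165 to 284), and the log2 ratio was −1.53 (−1.92 to −1.12). The immediate-early marker list was at 10052 CPM in these sham cells and 3182 CPM in the MOV cells, and at 15816 and 4855 CPM in vascular-like cells, where Hes1 moved the same way. The part of this marker list in the Hes1 levels was not tested. Jag1 was at 69.0 CPM in sham (44.2 to 103), with a log2 ratio of −0.37 (−0.95 to 0.28), and Notch2 at 66.1 CPM, with −0.79 (−1.39 to −0.12), which became −0.58 (−1.17 to 0.09) under TMM scaling. Notch3 was at 0 UMIs in the sham Pdgfra cells, which allows up to 8.63 CPM if read as up to 3 UMIs.

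Fibre droplets, which carry myofibre transcripts such as Acta1 at 53013 CPM in sham, held no UMI of the 3 receptors described here. In 500 sham droplets with 3065751 UMIs, Notch1, Notch2, Notch3, Hey1 and Heyl were all at 0, which allows up to 0.979 CPM and puts Notch3 at least 6.69 lower on the log2 scale than in sham MuSC-like cells. Hes1 had 151 UMIs in 67 droplets, at 49.3 CPM (41.7 to 57.8), or 41.2 CPM (33.5 to 50.2) without the shared barcodes, where the receptors, Hey1 and Heyl were again at 0. The main value gave a log2 ratio to sham MuSC-like cells of −1.35 (−1.67 to −1.03), beside a median of −1.08 over the 8498 genes tested. Rbpj had 31 UMIs (10.1 CPM), Hes6 had 23 (7.502 CPM), and Dll1 and Jag1 had 1 each. The 30 MOV droplets had 7 Hes1 UMIs, at 46.3 CPM. MuSC markers were also found in the sham droplets, Myod1 with 74 UMIs (24.1 CPM) and Cdh15 with 13 (4.24 CPM). Hes1 was at 167 CPM over all cells of the sham matrix. The background share of the Hes1 UMIs in droplets was not tested.

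**Figure D4:**
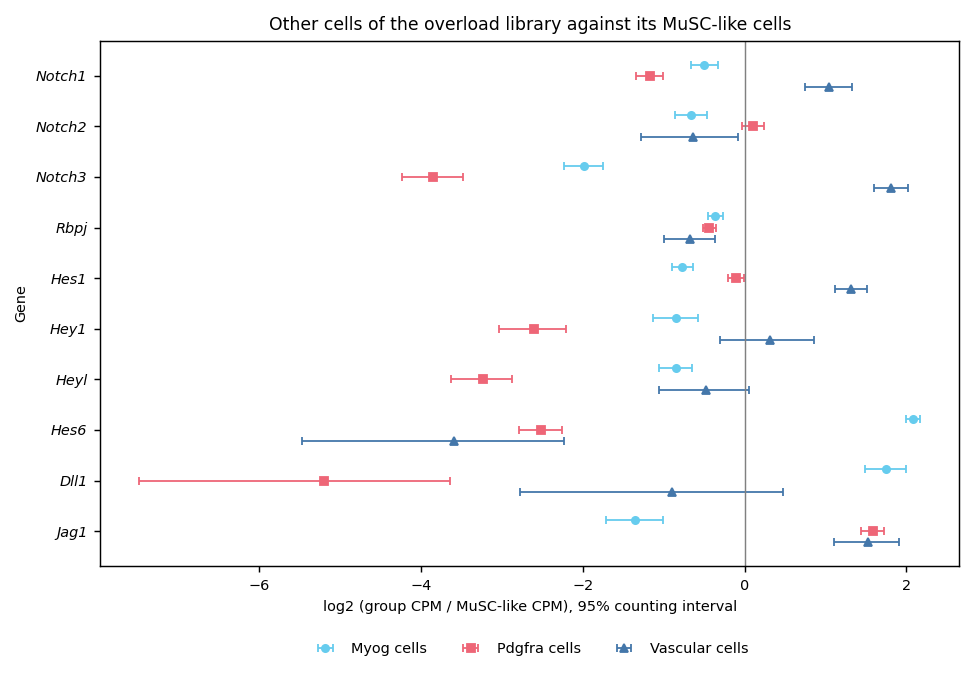
Log2 ratio of each member's CPM in Myog, vascular-like and Pdgfra cells to that in MuSC-like cells of the MOV library, with exact 95% intervals. Jag1 is right of 0 in vascular-like (1.52) and Pdgfra cells (1.59) and left of 0 in Myog cells (−1.35), and Hes6 and Dll1 are right of 0 in Myog cells alone.

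Further pathway genes were taken from a list of 63 covering other receptors and ligands, cleavage, glycosylation, ligand endocytosis, turnover, nuclear cofactors, targets and genes known to be bound or induced through RBPJ in MuSCs. In MuSC-like cells, 51 had enough UMIs, of which 5 were 2-fold or more higher and 7 lower under MOV. These shares of the list were near the 11.2% and 13.3% of all genes. With a minimum of 50 UMIs, the shares of all genes were 12.5% and 7.45%. The median log2 ratio of the list was 0.05. Calcr, the calcitonin receptor of quiescent MuSCs, was at 13.8 CPM in sham and 2.93 CPM under MOV, a log2 ratio of −2.24 (−2.93 to −1.48). Maml2 and Maml1, coactivators that bind the receptor's intracellular part with RBPJ, had ratios of −2.01 (−2.85 to −1.05) and −1.06 (−1.59 to −0.49), and Numb, an antagonist of Notch, had −1.14 (−1.72 to −0.51). Of the higher genes, L3mbtl3, a chromatin reader that binds RBPJ, had 1.28 (0.35 to 2.42), and Pofut1, which adds fucose to Notch receptors, had 1.08 (0.02 to 2.40). Neurl1a had 229 MOV and 0 sham UMIs, 1.35 higher on the log2 scale if the 0 is read as 3 UMIs. All of these rested on 31 or fewer sham UMIs. Several others past 2-fold, Notch4, Nrarp, Rita1 and Neurl1b among them, rested on 3 or fewer sham UMIs and had intervals across 0.

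In the quiescence-marker state, 36 of the 63 had enough UMIs, of which 9 were higher under MOV, where 15.6% of all genes were, and 2 were lower, where 6.25% were. The higher ones included 4 of the 5 collagen genes on the list. Col5a3 was at 59.5 CPM in sham and 285 CPM under MOV, 2.26 higher on the log2 scale (1.78 to 2.79). The same ratio was 1.82 (1.42 to 2.24) for Col5a2, 1.26 (0.70 to 1.86) for Col5a1 and 1.14 (0.74 to 1.57) for Col6a1. The other higher genes were Adam17, a protease that cuts the receptor outside the cell, at 1.64 (0.66 to 2.81), Aph1a, a subunit of γ-secretase, at 1.18 (0.23 to 2.28), L3mbtl3 with 36 MOV and 0 sham UMIs, and Pofut1 and Dtx2, whose intervals spanned 0. Calcr went the other way, at −1.06 (−2.04 to −0.02), and the other lower gene, Poglut1, had an interval across 0. Pdgfra cells of the MOV library carried Col5a2 at 2195 CPM and Col5a3 at 490 CPM, where its quiescence-marker cells had 321 and 285 CPM, and were a larger part of the MOV library. Their marker list summed to 469 CPM in the sham and 261 CPM in the MOV quiescence-marker cells, of which Dcn made up 453 and 233 CPM, and it had 4 of 7 genes with a UMI in sham and 7 of 7 under MOV. In the same cells the matrix marker list was at 56.2 CPM in sham and 560 CPM under MOV, and the quiescence list, which chose the cells, at 7376 and 5319 CPM. The part of these in the collagen levels was not tested.

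In Myog cells, 52 of the 63 had enough UMIs, of which 4 were higher and 6 lower than in MuSC-like cells, where 6.71% and 7.82% of all genes were. Neurl1a, a ubiquitin ligase that acts on Notch ligands, was at 34.1 CPM in Myog cells and 5.28 CPM in MuSC-like cells, which is 2.69 higher on the log2 scale (2.45 to 2.93). Dlk1, a non-canonical ligand, was at 2.98 CPM against 14.1 CPM, with −2.24 (−2.79 to −1.73). Of the 6 genes bound or induced through RBPJ, 5 were 2-fold or more lower, with Col5a3 at −1.80 (−1.95 to −1.65) and Calcr at −3.02 on 4 UMIs. The Pdgfra marker list was at 76.1 CPM in Myog cells and 147 CPM in MuSC-like cells, and the matrix list at 1846 and 2454 CPM, and their part in the 4 lower collagens was not tested. In cycling cells, 4 of 51 were higher and 4 lower, where 7.67% and 6.72% of all genes were, and Neurl1b had 162 UMIs in cycling and 1 in other MuSC-like cells. In vascular-like cells, 18 of 53 were higher and 4 lower, where 23.2% and 14.9% of all genes were, with Nrarp, a feedback target of Notch, at 61.0 CPM against 0.945 CPM and Dll4, the endothelial Delta ligand, at 19 UMIs against 0. In Pdgfra cells, 10 of 52 were higher and 8 lower, where 19.4% and 15.5% of all genes were, and the 5 collagens were among the higher.

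The genes most like each member were sought across 13 cell groups of at least 50 cells, by Pearson correlation of log2(CPM + 1). The points share libraries and depth, and the values are a description. They include sham fibre droplets, where Notch1, Notch2, Notch3, Hey1 and Heyl had 0 UMIs, and groups that are not myogenic. Points where genes are nearly absent can weigh heavily on r, and r within MuSC-like states was not computed. Among those states under MOV, Notch2 was highest in immediate-early cells and Rbpj in quiescence-marker cells. Notch3 and Hey1 had r = 0.93, Notch3 and Heyl 0.90, Hey1 and Heyl 0.92, and Notch2 and Rbpj 0.95. Sema6a was among the 3 nearest genes of Notch3 (r = 0.94), Hey1 (0.97) and Heyl (0.95). Hes6 was nearest to Chrnd, an acetylcholine receptor subunit (r = 0.95), Dll1 to Slc29a2 (0.94) and Jag1 to Phldb1 (0.98). Notch1 was nearest to Tmem128 (0.98), Notch2 to Ago3 (0.98), Rbpj to Mdfic (0.98) and Hes1 to Ccdc126 (0.92).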

How the data were processed

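Single-cell RNA from sorted plantaris cells was captured with 3′ droplet chemistry. The deposited matrices, 1 per condition, hold whole-number UMI counts per gene and cell, which the authors made with Cell Ranger 6.0.0 on mm10. They held 7302661 sham UMIs in 1100 cells and 88498487 MOV UMIs in 3854 cells. Cells with 10% or more mitochondrial UMIs (362 sham, 794 MOV) and the shallower copies of shared barcodes (5 sham, 39 MOV) were left out. The last step was chosen after seeing the data.

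A cell passed a gate with at least 3 UMIs over 2 genes of a marker list and a summed marker CPM of at least 100 (MuSC), 400 (Myog, endothelial, mural, immune, Schwann), 1000 (Pdgfra, tenocyte) or 50000 (fibre), with a UMI of Myog or Pdgfra for their own gates. MuSC-like cells were assigned in order to cycling (800 CPM), immediate-early (5000), interferon (1500), matrix (2000) and quiescence (2000) states, and the rest were low-marker. Thresholds came from the markers' distributions alone.

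UMIs were summed per group and divided by the group's total (CPM), with exact Poisson intervals, exact conditional binomial intervals for ratios and Clopper-Pearson intervals for shares, at 95%. PCR duplicates are collapsed by UMIs, and intervals cover counting error only. A count of 0 was read as up to 3 UMIs, and ratios to such a count take the other group's value without its interval. Genes with at least 20 UMIs over both groups were compared, and those past 2-fold were counted. The genes named were the members, examples from the pathway list picked after their values were seen, and genes among the 3 nearest each member. Members, lists and tests were chosen with earlier results of these data known. Scripts were tested on simulated data. Alternatives used edgeR 4.0.16 and DESeq2 1.42.0 scaling, other limits, thresholds and minimums, and a doublet score. Python 3.11.15, numpy 2.4.6, scipy 1.17.1 and R 4.3.3 were used.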

Additional observations from a re-analysis of the deposited data

How the results depend on the processing

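Of 298 ratio values at other settings, for 26 ratios of members, 292 kept the direction of the report, the exceptions being Heyl (at 2 settings), Notch1 and Rbpj in MuSC-like cells and Notch3 (at 2 settings) in vascular-like cells, all of MOV against sham. This Notch3 ratio was at −0.35 and −0.38 with mitochondrial limits of 5% and 20%. With the 5% limit, the log2 ratios in MuSC-like cells were −0.59 for Notch3, 0.67 for Heyl, −0.21 for Hes1, 0.17 for Notch1, 2.16 for Dll1 and 0.036 for Rbpj, and that of Hes6 in Myog cells was 1.95. In quiescence-marker cells this limit gave 1.48 for Hes1 and −1.30 for Jag1. Without either copy of the shared barcodes, a setting added after seeing the data, Notch3 was at −1.30 and Heyl at −0.37 in MuSC-like cells, and Hes1 was at 41.2 CPM in sham fibre droplets. The mean of the cells' own CPM gave −0.31 for Heyl and 1.29 for Hes6 in MuSC-like cells, and −1.06 for Heyl, 2.57 for Hes6 and 2.00 for Dll1 in Myog cells. Doubled marker thresholds gave −1.19 for Heyl and 2.21 for Hes6 in Myog cells and −0.83 for Notch3 in cycling cells, which doubled state thresholds put at −0.81. Neither TMM nor median-of-ratios scaling turned a direction among these 26 ratios. In cycling against other MuSC-like cells, they raised every log2 ratio by 0.0797 and 0.0827. That is more than the small negative ratios of Notch1 and Dll1 there, so the direction of these is not settled. The causes of the shifts between settings were not tested.

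Thinning to 1000 or 4000 UMIs gave Notch3 shares of 11.2% and 41.7% in sham and 7.14% and 25.5% under MOV. With a minimum of 50 UMIs in place of 20, fewer genes were tested, and 866 in place of 1726 were 2-fold or more lower under MOV in MuSC-like cells, 651 in place of 1215 higher and 259 in place of 486 lower in quiescence-marker cells, and 1995 in place of 3053 higher in vascular-like cells. With 1 UMI in each group as the minimum, 1511 were lower in quiescence-marker cells, 1919 in place of 899 higher in Myog cells, 1730 in place of 870 lower in cycling cells, and 4100 in place of 2702 higher in Pdgfra cells. No paired analysis was possible because each condition had 1 library. Sham groups, with 107 MuSC-like, 28 Pdgfra and 10 vascular-like cells, set the precision of every sham comparison.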

Other observations

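Groups outside the comparisons also carried members. In 77 Schwann-like cells of the MOV library, Notch1 was at 132 CPM (106 to 163), Hes1 at 191 CPM (159 to 227) and Jag1 at 43.9 CPM (29.4 to 63.1), while Notch3 had 1 UMI and Heyl and Dll1 had 0. In 68 immune-like cells, Rbpj was at 248 CPM (213 to 286), the highest level of this gene in any MOV group of 10 or more cells, and Hes1 was at 7.98 CPM (2.93 to 17.4), the lowest of Hes1 in such groups. In 133 tenocyte-like cells, Notch2 was at 53.5 CPM (44.7 to 63.6), Hes1 at 110 CPM (97.1 to 124) and Jag1 at 29.0 CPM (22.6 to 36.7), with Dll1 at 1 UMI. These values come from 1 library and were not compared by any test.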
